A study of Mus musculus with 6 samples.

Results

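Chemokines and their receptors were compared between Atf7 knockout (KO) and wild-type (WT) mice in the inguinal white fat of young mice, a depot under the skin. The set held every gene whose symbol begins with Ccl, Cxcl, Ccr or Cxcr and a digit, plus Xcl1, Xcr1, Cx3cl1 and Cx3cr1. The lymphoid genes Ccl19, Cxcl13, Ccr7 and Cxcr5 and the Ccrl genes were left out of it. Of 19937 genes represented by 1 probe set each, 48 belonged to the set, 32 ligands and 16 receptors. Probe sets that the annotation pairs with several genes, among them those of Ccl21 and Ccl27 copies, were not used here.

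RNA came from 6 male C57BL/6 mice aged 5 weeks, 3 WT and 3 labelled ATF7 KO, with 1 Affymetrix array per mouse. The 2 genotypes were littermates of heterozygous matings, with no other allele or treatment named. The part of Atf7 that the allele removes, and any restriction of the deletion to a cell type, are not stated by the labels. The title of the series sets the question of ATF7's part in adipocyte formation and in thermogenic genes.

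Chemokines are small secreted proteins that attract leukocytes along a concentration gradient. They act on receptors that cross the membrane several times and signal through inhibitory G proteins, which steer migration and integrin adhesion. In fat, stromal, endothelial and immune cells secrete them, and the receptors lie mainly on leukocytes. An inguinal depot can also hold a lymph node, where lymphocytes are placed by chemokine gradients. ATF7 is a bZIP transcription factor related to ATF2, and in macrophages it is known to hold innate immune genes in a repressed state.

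Values are log2 intensities after normalization between arrays, so a difference of 1 is a doubling. The label of the targeted gene was checked first. Atf7 probe set 10433032 was at 9.07 ± 0.12 in WT and 6.41 ± 0.17 in KO (SD, n = 3), a difference of -2.66 with an adjusted p of 0.00658 by limma over all probe sets, and of 0.0745 without WT replicate 1 and 0.147 without WT replicate 3. Its other probe set, 10433034, is brighter and differed by -0.17. KO replicate 3 stood apart, with correlations from 0.969 to 0.981 with the other arrays against 0.984 to 0.990 among the other 5. The adipocyte hormone gene Adipoq was at 12.37, 12.52 and 12.52 in the WT arrays and 12.46, 12.24 and 12.68 in the KO arrays, and the level of the 8 adipocyte markers ran from -0.19 to 0.12 in WT and -0.034 to 0.18 in KO. A list's level here and below is the mean of its genes, taken relative to that gene's average on the 6 arrays. T cell, B cell and lymph node markers differed widely among the KO arrays and are given below beside the genes they move with.

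None of the 48 genes passed the test of KO against WT at an adjusted p under 0.05 (limma, Benjamini-Hochberg over all genes), with adjusted p-values from 0.622 to 0.994. Over all 19937 genes, with Atf7 represented by its brighter probe set, the test called 0% in both directions. At an unadjusted p under 0.05 from limma, 2 of the 48 were lower in KO (4.17%, against 2.48% of all genes) and 0 were higher (against 4.99%). Both were receptors, Cxcr3 and Cx3cr1. These were also the only 2 members whose KO arrays all lay below the WT arrays, a separation found in 5.97% of all genes. The opposite separation was found in 0 members and in 7.96% of all genes. The 32 ligands had a median difference of 0.036 and the 16 receptors one of -0.36, against 0.01 for all genes. Without KO replicate 3 these medians were -0.013 and -0.20. Of the receptors 13 had a negative difference, and of the ligands 14, where 47% of all genes did. Without KO replicate 3 the counts were 13 of 16 receptors and 18 of 32 ligands, against 51.5% of all genes. Differences below -0.5 were seen in 9 members (18.8%, against 2.97%) and differences above 0.5 in 0 members (against 1.49%). Without KO replicate 3, 2 members lay below -0.5, Ccr9 and Cxcl15 (4.17%, against 0.537%).

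**Figure D1:**
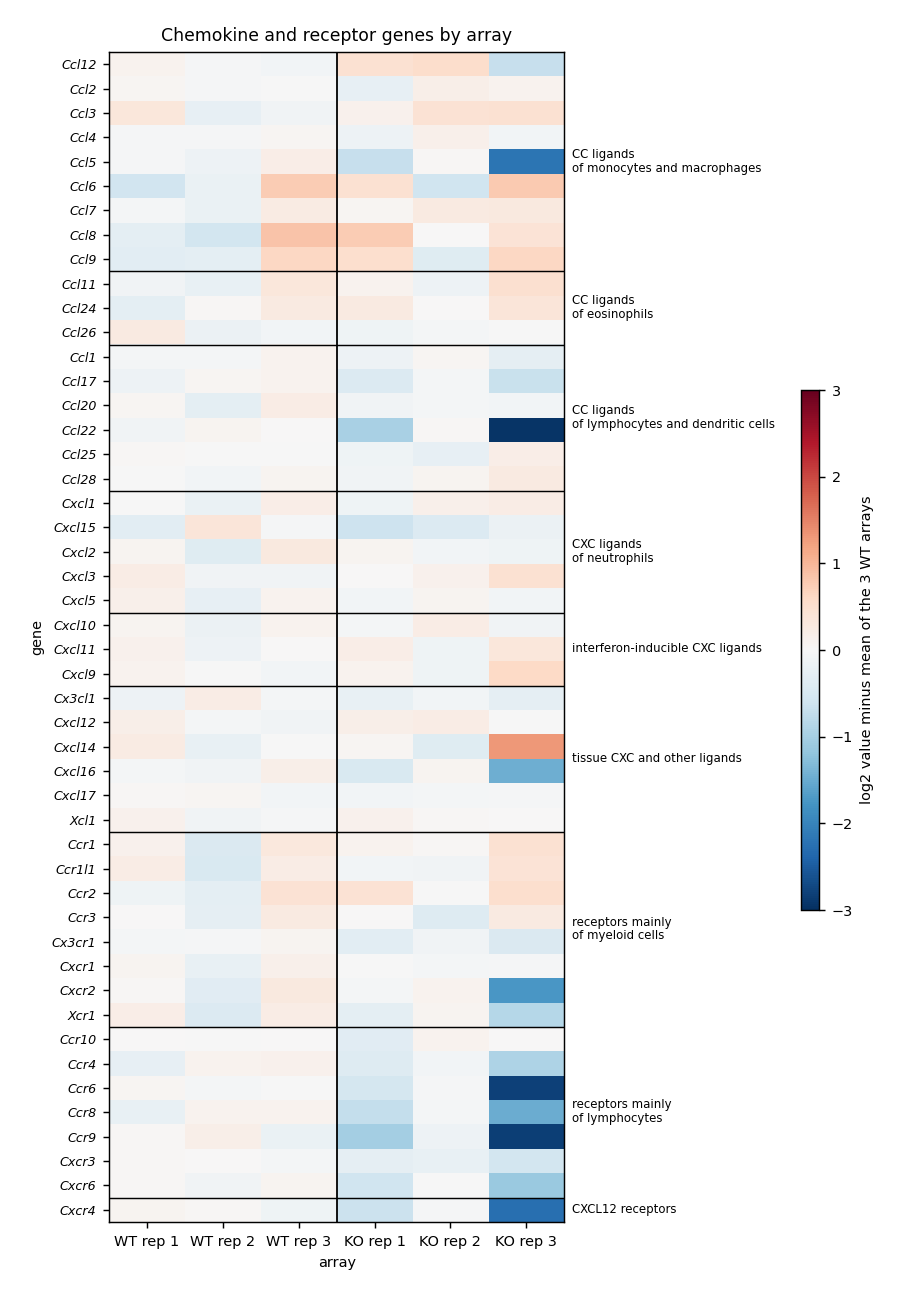
Each row is 1 of the 48 chemokine or receptor genes, grouped by role, and each column is 1 array; colour gives the log2 value minus the mean of the 3 WT arrays. KO replicate 3 and, less so, KO replicate 1 are blue for Ccl5, Ccl22, Cxcl16, Cxcr4 and most lymphocyte receptors, while KO replicate 2 is close to WT.

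Cxcr3, the receptor that draws activated T cells and NK cells to interferon-induced ligands, had the smallest p of the set. It was at 7.87, 7.86 and 7.79 in the WT arrays and 7.56, 7.61 and 7.29 in the KO arrays. Every KO array lay below the lowest WT array, and the gap was widest for KO replicate 3. The difference was -0.35 (SE 0.11, 95% interval -0.61 to -0.094), with an unadjusted p of 0.0146 and an adjusted p of 0.622 by limma. Without KO replicate 3 it was -0.25, with an unadjusted p of 0.0340 from limma.

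Cx3cr1, the fractalkine receptor of monocytes, macrophages and cytotoxic lymphocytes, was at 7.24, 7.25 and 7.38 in the WT arrays and 6.97, 7.18 and 6.87 in the KO arrays. KO replicate 2 was the nearest to WT, just below the lowest WT array. The difference was -0.29 (SE 0.11, 95% interval -0.54 to -0.029), with an adjusted p of 0.622 by limma. It was -0.22 without KO replicate 3, where the unadjusted p of limma was 0.0957. In bulk tissue, fewer cells that carry a receptor and less RNA per cell cannot be told apart.

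The promoters of these 2 receptors are shown because no other members separated the groups, together with that of Cxcr6, a receptor with the same order of arrays, and that of Cxcl10, a Cxcr3 ligand that was close in both groups. Each is the 250 bases before the gene's start in RefSeq (GRCm38.p6), 5′ to 3′ on the gene's strand, with motif matches in capitals. They lie at chrX:101734148-101734397 on the minus strand for Cxcr3, chr9:120068297-120068546 on the minus strand for Cx3cr1, chr9:123806227-123806476 on the plus strand for Cxcr6 and chr5:92348890-92349139 on the minus strand for Cxcl10.
Cxcr3: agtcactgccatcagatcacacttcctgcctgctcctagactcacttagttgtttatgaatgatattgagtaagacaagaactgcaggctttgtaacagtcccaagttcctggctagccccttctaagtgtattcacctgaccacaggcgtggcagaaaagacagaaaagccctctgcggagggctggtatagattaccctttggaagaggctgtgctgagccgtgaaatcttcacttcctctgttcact
Cx3cr1: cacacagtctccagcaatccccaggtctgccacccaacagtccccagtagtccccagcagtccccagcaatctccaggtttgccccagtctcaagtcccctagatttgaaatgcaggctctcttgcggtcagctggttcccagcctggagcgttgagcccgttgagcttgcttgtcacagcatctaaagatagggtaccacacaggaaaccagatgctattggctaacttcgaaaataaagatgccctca
Cxcr6: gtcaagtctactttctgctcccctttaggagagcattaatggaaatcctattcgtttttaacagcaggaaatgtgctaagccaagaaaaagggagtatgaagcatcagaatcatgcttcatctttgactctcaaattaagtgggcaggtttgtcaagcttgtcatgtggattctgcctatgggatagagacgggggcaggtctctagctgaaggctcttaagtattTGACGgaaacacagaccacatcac
Cxcl10: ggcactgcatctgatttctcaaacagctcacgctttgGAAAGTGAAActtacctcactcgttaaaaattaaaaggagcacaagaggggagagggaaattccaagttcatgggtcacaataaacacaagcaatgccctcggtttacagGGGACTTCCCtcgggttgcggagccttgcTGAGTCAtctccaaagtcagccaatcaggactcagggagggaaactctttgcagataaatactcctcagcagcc
Cxcr3 and Cx3cr1 had no match in these windows. The capitals mark the half-site TGACG in Cxcr6. In Cxcl10 they mark matches first to the interferon response motif, then to the NF-kB motif and then to the AP-1 motif. Sites with other letters than the motifs below were not searched for.

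Of the 48 members, 36 had a promoter in that table. The cyclic AMP response element (CRE) that ATF proteins bind, searched like the other motifs on both strands, as TGACGTCA, was in 0 of the 36, against 1.77% of 27025 genes. Its half-site TGACG, which every full site contains, was in 5 (13.9%, against 19.8%). These were Ccr1l1, Ccr6, Cxcl1, Cxcl12 and Cxcr6. The AP-1 motif TGANTCA was in 4 (11.1%, against 7.82%). The NF-kB motif (GGGA, any base, TT, any base, CC) was in 6 (16.7%, against 1.13%), namely Cxcl1, Cxcl2, Cxcl3, Cxcl10, Ccr3 and Ccr6. The interferon response motif (GAAA, any 2 bases, GAAA) was in Cxcl10 and Cxcl14 (5.56%, against 3.46%). Of the 7 genes that carry the NF-kB or the interferon motif, Cxcl1, Cxcl2, Cxcl10 and Ccr3 differed by 0.076, -0.045, 0.018 and -0.038. Cxcl3 and Cxcl14 differed by 0.20 and 0.33 and Ccr6 by -1.12. A match describes the letters of this window and shows no binding.

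Of the other receptors of lymphocytes, Ccr4, Ccr6, Ccr8, Ccr9 and Cxcr6 had larger negative differences than Cxcr3, with far wider spread in KO. All 7 genes of this list, Cxcr3 included, had negative differences, with a median of -0.58, and -0.28 without KO replicate 3. Ccr9, which guides T cells and plasma cells to the gut, was at 7.93, 8.08 and 7.70 in the WT arrays and 6.89, 7.75 and 5.08 in the KO arrays. It lay inside the WT range in KO replicate 2 and was low in the other KO arrays. Its difference of -1.33, 2.51-fold lower in KO, had an SE of 0.60 and an adjusted p of 0.622 by limma, and was -0.58 without KO replicate 3.

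Ccr6, a receptor of B cells and Th17 cells, was at 7.88, 7.77 and 7.82 in the WT arrays and 7.30, 7.78 and 5.03 in the KO arrays. The WT arrays and KO replicate 2 were close together, and KO replicate 3 was far below them. The difference was -1.12 (SE 0.64, 95% interval -2.63 to 0.39), and -0.28 without KO replicate 3. Cxcr6, found on memory T cells and NKT cells, was at 7.74, 7.59 and 7.80 in the WT arrays and 7.12, 7.69 and 6.59 in the KO arrays. Its difference was -0.58 (SE 0.26) and -0.31 without KO replicate 3. Ccr8, a receptor of regulatory and Th2 cells, was at 5.77, 6.09 and 6.08 in the WT arrays and 5.28, 5.93 and 4.50 in the KO arrays. Ccr4, shared by Th2, regulatory and skin-homing T cells, was at 6.38, 6.73 and 6.76 in the WT arrays and 6.24, 6.54 and 5.71 in the KO arrays. These 2 differed by -0.74 and -0.46, and by -0.38 and -0.24 without KO replicate 3. For each of these 5 receptors KO replicate 2 lay inside the WT range. Ccr10, the receptor of skin and mucosal lymphocytes, had a difference of -0.072 (95% interval -0.37 to 0.23).

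Cxcr4, the receptor of Cxcl12 on most leukocytes, was at 9.28, 9.24 and 9.07 in the WT arrays and 8.55, 9.16 and 6.93 in the KO arrays. KO replicate 3 was more than 2 log2 units below every WT array, and KO replicate 2 lay inside the WT range. The difference was -0.98 (SE 0.51, 1.98-fold lower in KO), with an adjusted p of 0.622 by limma, and -0.34 without KO replicate 3. Ackr3, an atypical Cxcl12 receptor that takes the ligand up without G protein signalling and is no member of the set by symbol, had a positive difference. It was at 6.38, 6.31 and 6.57 in the WT arrays and 7.41, 6.99 and 6.75 in the KO arrays, with all KO arrays above the highest WT array. Its difference was 0.63 (SE 0.17), with an unadjusted p of 0.00832 and an adjusted p of 0.622 from limma, and it ranged from 0.45 to 0.78 when single arrays were left out.

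**Figure D2:**
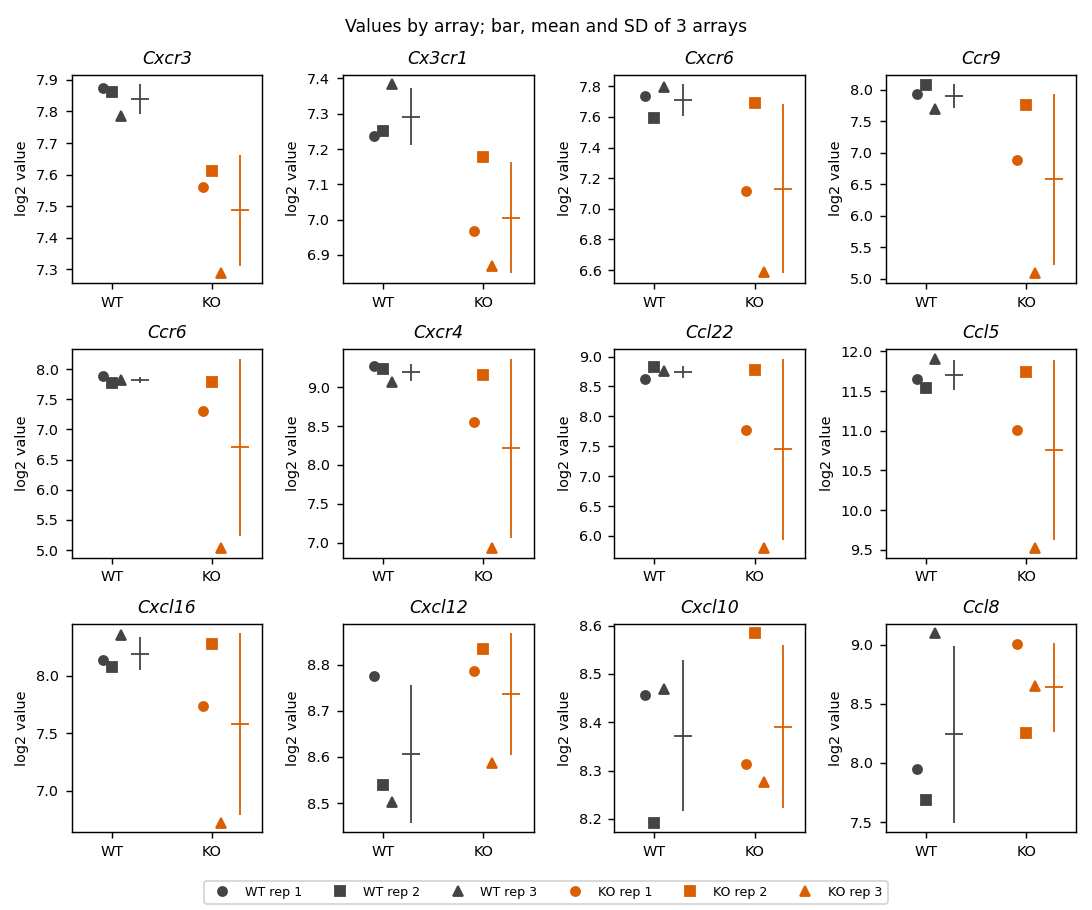
Log2 values of 12 members, 1 panel each, with a symbol per array and the mean ± SD of each group beside it; axes differ between panels and do not start at 0. Cxcr3 and Cx3cr1 separate the groups, while in Cxcr6, Ccr9, Ccr6, Cxcr4, Ccl22, Ccl5 and Cxcl16 KO replicate 3 is lowest, KO replicate 1 is next and KO replicate 2 lies near WT.

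This order of arrays, KO replicate 3 lowest and KO replicate 1 second lowest, was seen in 14 of 48 members (29.2%, against 11.8% of all genes). KO replicate 3 alone was the lowest array for 17 members (35.4%, against 20.7%) and the highest for 16 (33.3%, against 31.4%). The order was chosen for counting after the values were seen. It held in 8 of 16 receptors, namely Ccr4, Ccr6, Ccr8, Ccr9, Cxcr3, Cxcr4, Cxcr6 and Cx3cr1, and in the 6 ligands Ccl1, Ccl5, Ccl17, Ccl22, Cxcl16 and Cx3cl1. Lymphocyte markers had the same order. All 11 measured T cell markers and all 9 measured B cell markers showed it. The T cell level ran from 0.51 to 0.72 in WT and was -0.25, 0.61 and -2.16 in the KO arrays. The B cell level ran from 0.60 to 0.93 in WT and was 0.12, 0.82 and -3.33 in KO.

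The defining B cell gene Ms4a1 was at 10.25, 9.87 and 10.21 in the WT arrays and 9.41, 10.19 and 4.58 in the KO arrays. Cd3e of the T cell receptor complex was at 10.38, 10.26 and 10.78 in the WT arrays and 9.58, 10.60 and 7.50 in the KO arrays. Glycam1, a product of lymph node high endothelium, was at 11.64, 12.26 and 12.14 in the WT arrays and 10.23, 11.33 and 5.27 in the KO arrays. Of the 8 measured lymph node and high endothelial markers 7 had the same order, with list levels from 0.46 to 0.66 in WT and from -1.94 to 0.45 in KO. That list shares 2 genes with the B cell list. The part that lymphocyte or lymph node content has in the receptor differences was not tested. Without KO replicate 2, the KO array nearest to WT, 12 members were lower at an unadjusted p under 0.05 (25%, against 8.47% of all genes), 8 receptors and 4 ligands, and 0 were higher (against 10.4%). Without KO replicate 3, 2 members were lower, Cxcr3 and Cxcl15 (4.17%, against 1.9%), and 1 higher, Ccl12 (2.08%, against 3.1%). Without KO replicate 1, Cxcr3 was lower (2.08%, against 0.993%) and 0 members were higher (against 2.81%).

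**Figure D3:**
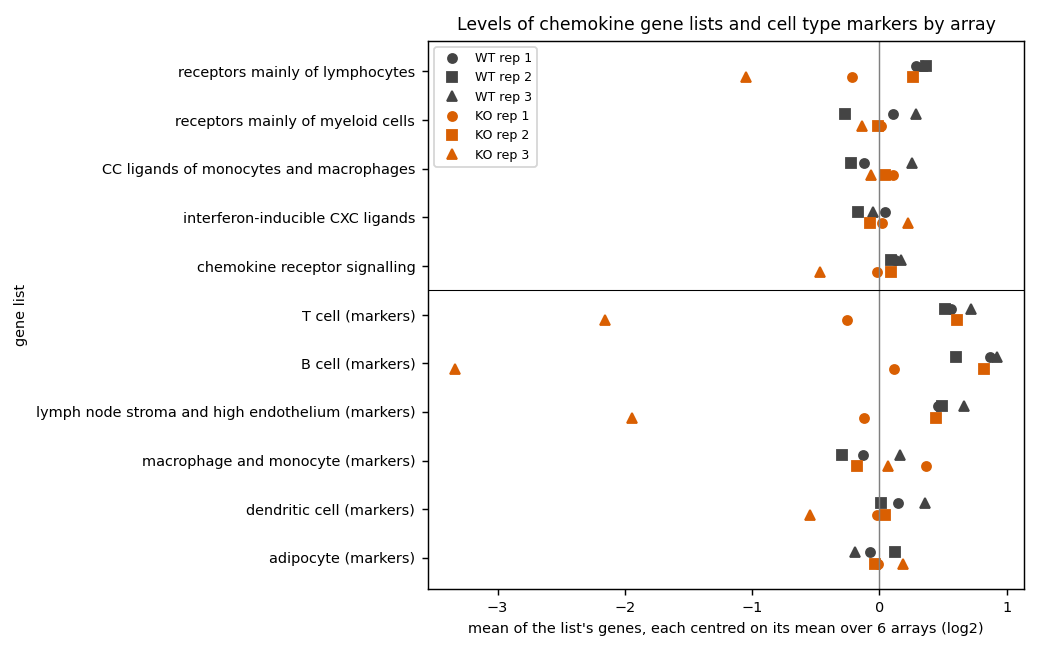
Each row is a gene list and each symbol 1 array, placed at the mean of the list's genes, each taken relative to its average on the 6 arrays. Lymphocyte receptors and chemokine signalling genes share with T cell, B cell and lymph node markers the low position of KO replicate 3, while lists of macrophage genes do not.

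The receptors found mainly on myeloid cells had a median difference of -0.036 over 8 genes, 5 of them negative. Ccr2, which brings inflammatory monocytes into tissue, was at 7.16, 6.98 and 7.71 in the WT arrays and 7.70, 7.27 and 7.77 in the KO arrays. WT replicate 3, KO replicate 1 and KO replicate 3 were alike and high, and the groups overlapped. The difference was 0.30 (SE 0.22), and 0.52 without WT replicate 3, where the unadjusted p of limma was 0.0286. Without WT replicate 2 it was 0.15, with an unadjusted p of 0.526 from limma.

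Ccr1, a receptor of monocytes and neutrophils, and its homologue Ccr1l1 differed by 0.20 and 0.073, and Ccr3, the eotaxin receptor, by -0.038. Cxcr1 and Cxcr2, which answer neutrophil-attracting chemokines, differed by -0.033 and -0.56. Cxcr2 was at 6.87, 6.48 and 7.12 in the WT arrays and 6.77, 6.94 and 5.09 in the KO arrays, with KO replicate 3 far below the rest. Its difference was 0.032 without it. The neutrophil marker Ly6g was at 4.87, 4.66 and 5.29 in the WT arrays and 4.63, 4.75 and 4.84 in the KO arrays, with KO replicate 3 inside the WT range. Csf3r, the receptor of the neutrophil growth factor, was at 6.49, 6.51 and 6.82 in the WT arrays and 6.77, 6.65 and 6.09 in the KO arrays, with KO replicate 3 the lowest array. Of the 11 granulocyte and mast cell markers 5 had KO replicate 3 lowest, among them the neutrophil genes S100a8, S100a9, Csf3r and Mpo, and Ly6g did not. The list's level ran from -0.22 to 0.28 in WT and from -0.042 to 0.073 in KO. The part of neutrophil content was not tested. Xcr1, a marker of cross-presenting dendritic cells, was at 7.21, 6.60 and 7.22 in the WT arrays and 6.71, 7.08 and 6.15 in the KO arrays, with a difference of -0.36 (95% interval -0.99 to 0.27), and -0.11 without KO replicate 3. Clec9a and Batf3, genes of the same dendritic cells, differed by -0.37 and -0.0073. Of the 7 dendritic cell markers 5 had negative differences, and Zbtb46 and Cd209a differed by 0.14 and 0.14. The level of the 7 dendritic cell markers ran from 0.017 to 0.36 in WT and was -0.016, 0.043 and -0.55 in the KO arrays, and its part in the Xcr1 values was not tested.

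Among the ligands, Ccl22 and Ccl5 had the largest negative differences. Ccl22, made by dendritic cells and macrophages to attract Ccr4-bearing T cells, was at 8.63, 8.83 and 8.75 in the WT arrays and 7.77, 8.77 and 5.80 in the KO arrays. KO replicate 2 lay among the WT arrays. The difference was -1.29 (SE 0.66, 95% interval -2.85 to 0.27, 2.44-fold lower in KO), and -0.46 without KO replicate 3. Ccl17, the other Ccr4 ligand, was at 7.33, 7.53 and 7.57 in the WT arrays and 7.07, 7.43 and 6.80 in the KO arrays, and differed by -0.37 (SE 0.17), and by -0.22 without KO replicate 3. Ccl5, a product of T cells and NK cells among others, was at 11.66, 11.54 and 11.91 in the WT arrays and 11.02, 11.75 and 9.52 in the KO arrays. Its difference was -0.94 (SE 0.50), 1.92-fold lower in KO, and -0.32 without KO replicate 3. Cxcl16, the membrane-bound Cxcr6 ligand of antigen-presenting cells, was at 8.14, 8.08 and 8.36 in the WT arrays and 7.74, 8.28 and 6.72 in the KO arrays, with a difference of -0.61 and -0.19 without KO replicate 3. The level of the 8 NK cell markers ran from -0.17 to 0.11 in WT and from -0.18 to 0.19 in KO. Of these, 3 had negative differences and 5 positive ones, and Klrd1, Prf1 and Eomes had KO replicate 3 lowest and KO replicate 1 second lowest. Klrd1 was at 7.59, 7.51 and 7.60 in the WT arrays and 7.20, 7.73 and 5.76 in the KO arrays. The part of NK cell content in the Ccl5 values was not tested. Adjusted p-values of these 4 ligands lay between 0.622 and 0.629 by limma.

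**Figure D4:**
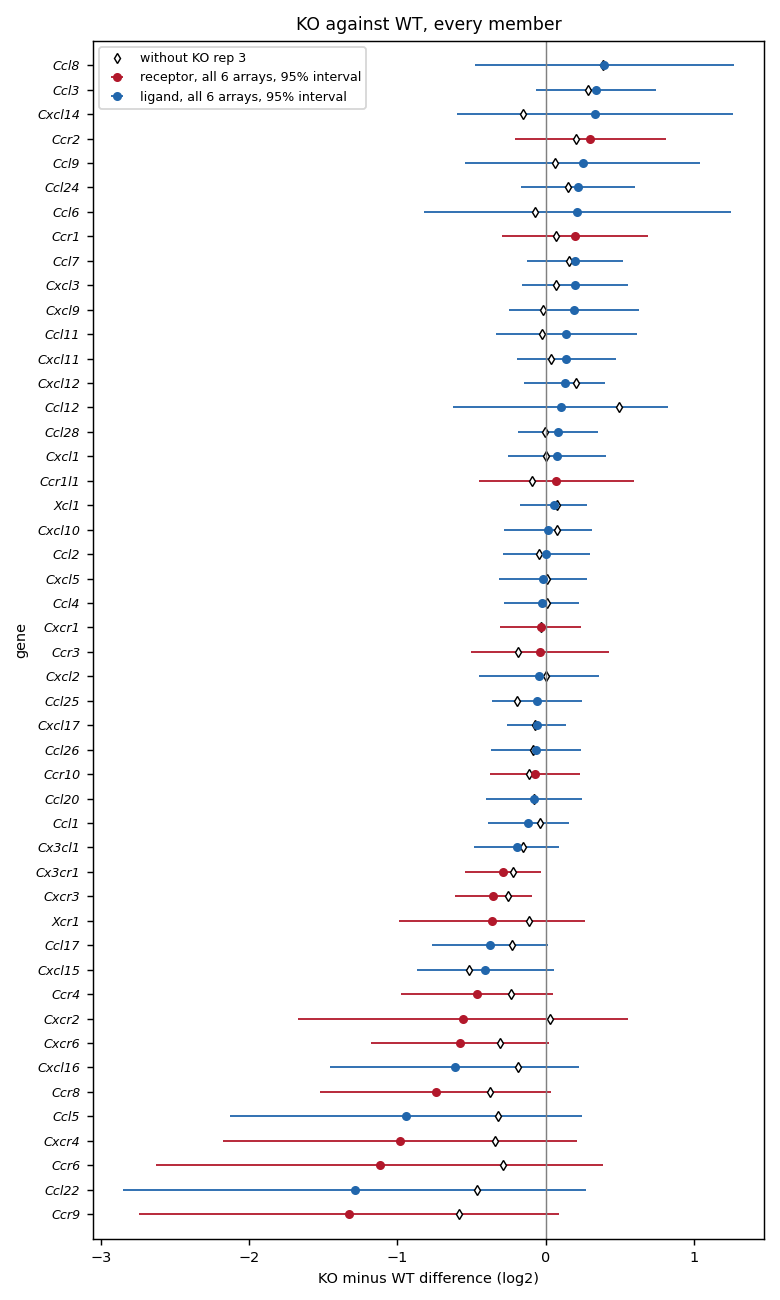
KO minus WT difference of each of the 48 members with its 95% interval from limma, receptors in red and ligands in blue, and the difference without KO replicate 3 as open diamonds. The intervals of Cxcr3 and Cx3cr1 exclude 0, and most diamonds of the genes at the bottom lie nearer to 0 than the filled points.

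The remaining CC ligands of monocytes and macrophages had small positive differences or differences near 0. Of the 9 genes in this list, Ccl5 included, 7 were positive, with a median of 0.20. Without KO replicate 3 the median was 0.066 and 3 of the 9 were negative. Ccl2, the main monocyte attractant of inflamed fat, was at 7.44, 7.36 and 7.38 in the WT arrays and 7.14, 7.56 and 7.49 in the KO arrays, a difference of 0.0045 (95% interval -0.29 to 0.30). Ccl7, which acts on the same receptor, was at 7.50, 7.35 and 7.80 in the WT arrays and 7.60, 7.81 and 7.83 in the KO arrays and differed by 0.20, with 0.32 without WT replicate 3 and 0.098 without WT replicate 2. Ccl12, another Ccr2 ligand, was at 6.12, 6.00 and 5.95 in the WT arrays and 6.47, 6.56 and 5.34 in the KO arrays. KO replicate 3 was the lowest array for Ccl12 and the other KO arrays were the highest, so the difference was 0.10 with all arrays and 0.49 without KO replicate 3, with an unadjusted p of 0.00221 from limma and an adjusted p of 0.931.

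Ccl3, a macrophage inflammatory protein, was at 6.58, 6.00 and 6.13 in the WT arrays and 6.38, 6.67 and 6.68 in the KO arrays. Of the members it had the smallest p among positive differences (0.34, SE 0.17, adjusted p 0.622 by limma), and its difference was 0.51 without WT replicate 1, with an unadjusted p of 0.0102. Without WT replicate 2 it was 0.22, with an unadjusted p of 0.257 from limma. Ccl4, its close relative, differed by -0.025.

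Ccl6, Ccl8 and Ccl9, myeloid products of resident macrophages and related cells, overlapped between the groups. Ccl8 was at 7.95, 7.69 and 9.09 in the WT arrays and 9.004, 8.26 and 8.65 in the KO arrays. Its difference of 0.40 had an SE of 0.37, and it was 0.82 without WT replicate 3 (unadjusted p 0.0129 from limma). Without WT replicate 2 it was 0.12 (unadjusted p 0.763 from limma), without KO replicate 1 it was 0.21, and without WT replicate 1 it was 0.25. Ccl6 was at 8.89, 9.27 and 10.23 in the WT arrays and 9.92, 8.86 and 10.25 in the KO arrays. Ccl9 was at 8.60, 8.63 and 9.53 in the WT arrays and 9.41, 8.56 and 9.54 in the KO arrays. WT replicate 3, KO replicate 1 and KO replicate 3 were the 3 highest arrays for these genes, for the eosinophil attractants Ccl11 and Ccl24 and for Ccr2, which makes 6 of 48 members (12.5%, against 7.83% of all genes). These arrays, too, were chosen for counting after the values were seen. Of 10 measured macrophage and monocyte markers 6 had those arrays highest, and the list's level ran from -0.29 to 0.16 in WT and from -0.17 to 0.37 in KO. Mrc1, the mannose receptor of tissue macrophages, was at 9.07, 8.84 and 9.35 in the WT arrays and 9.82, 9.02 and 9.29 in the KO arrays. The part of macrophage content in these values was not tested.

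Ccl11, or eotaxin-1, was at 9.24, 9.12 and 9.68 in the WT arrays and 9.46, 9.19 and 9.82 in the KO arrays, a difference of 0.14 (95% interval -0.34 to 0.62). Ccl24 differed by 0.22 and Ccl26 by -0.065. The eosinophil markers Siglecf and Prg2 differed by -0.041 and -0.0030. The mast cell genes Cpa3, Mcpt4, Cma1 and Kit differed by 0.54 (SE 0.39), 0.46, 0.27 and 0.021.

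The CXC ligands of neutrophils had differences close to 0. Cxcl1, Cxcl2, Cxcl3 and Cxcl5 differed by 0.076, -0.045, 0.20 and -0.021, with standard errors from 0.13 to 0.17. Cxcl2 was at 4.46, 4.02 and 4.68 in the WT arrays and 4.46, 4.31 and 4.25 in the KO arrays, with the groups overlapping fully. Cxcl15, a lung-enriched member, was at 4.33, 5.03 and 4.62 in the WT arrays and 4.03, 4.26 and 4.47 in the KO arrays and differed by -0.41 (SE 0.20). It was among 26 of the 48 members whose mean lay below 6.89, the median level of all genes. The table holds no detection calls, so signal and background cannot be told apart for the dimmest of them. Ppbp, a platelet chemokine of the same class with no Cxcl symbol, was at 6.94, 6.92 and 6.94 in the WT arrays and 7.33, 7.55 and 8.03 in the KO arrays. All KO arrays were above the WT arrays, and the difference was 0.70 (SE 0.17), with an unadjusted p of 0.00474 and an adjusted p of 0.622 by limma, and 0.51 without KO replicate 3. Pf4, the other platelet chemokine, was at 8.85, 8.88 and 9.25 in the WT arrays and 9.40, 8.97 and 9.44 in the KO arrays and differed by 0.27.

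The interferon-inducible ligands of Cxcr3 had positive differences, all with intervals that include 0. Cxcl9 was at 10.07, 9.96 and 9.89 in the WT arrays and 10.07, 9.84 and 10.58 in the KO arrays, with KO replicate 3 the highest array. Cxcl10 was at 8.46, 8.19 and 8.47 in the WT arrays and 8.31, 8.58 and 8.28 in the KO arrays, with the groups overlapping. Cxcl9, Cxcl10 and Cxcl11 differed by 0.19, 0.018 and 0.14, with 95% intervals of -0.25 to 0.63, -0.28 to 0.32 and -0.19 to 0.47. Without KO replicate 3 these ligands differed by -0.019, 0.076 and 0.037. Ifng, their main inducer, differed by -0.042, and Irf1, which acts below it, by -0.12.

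Cxcl12, made by stromal and endothelial cells to retain leukocytes and precursors, was at 8.78, 8.54 and 8.50 in the WT arrays and 8.79, 8.84 and 8.59 in the KO arrays, a difference of 0.13 (95% interval -0.14 to 0.40). Cxcl14, a homeostatic chemokine of epithelia and fat, was at 7.55, 7.08 and 7.30 in the WT arrays and 7.35, 6.96 and 8.61 in the KO arrays. KO replicate 3 stood over 1 log2 unit above all other arrays, and the difference of 0.33 became -0.15 without it. Cx3cl1, or fractalkine, the endothelial ligand of Cx3cr1, was at 6.73, 7.11 and 6.85 in the WT arrays and 6.68, 6.81 and 6.62 in the KO arrays and differed by -0.19 (95% interval -0.48 to 0.092). Xcl1, the Xcr1 ligand of NK and CD8 T cells, and Cxcl17, a mucosal chemokine, differed by 0.054 and -0.061.

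Receptors and ligands were set side by side in 22 pairs of 13 receptors. The 6 receptors with differences below -0.5 were Ccr6, Ccr8, Ccr9, Cxcr2, Cxcr4 and Cxcr6, or 37.5% of the receptors, where 2.97% of all genes lay below that size. Of their 9 paired ligands, Cxcl16 alone lay below -0.5. Without KO replicate 3, Ccr9 was the only receptor below -0.5 (6.25%, against 0.537% of all genes). Cxcr2 and Cxcl16 then differed by 0.032 and -0.19. Ccl20, the Ccr6 ligand, differed by -0.079 (95% interval -0.40 to 0.25), Ccl25, the Ccr9 ligand, by -0.057 (-0.36 to 0.25), and Ccl1, the Ccr8 ligand, by -0.12 (-0.39 to 0.15). Ccl28, which acts on Ccr10 in mucosa, differed by 0.084. The difference between a receptor and its ligand was not tested.

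**Figure D5:**
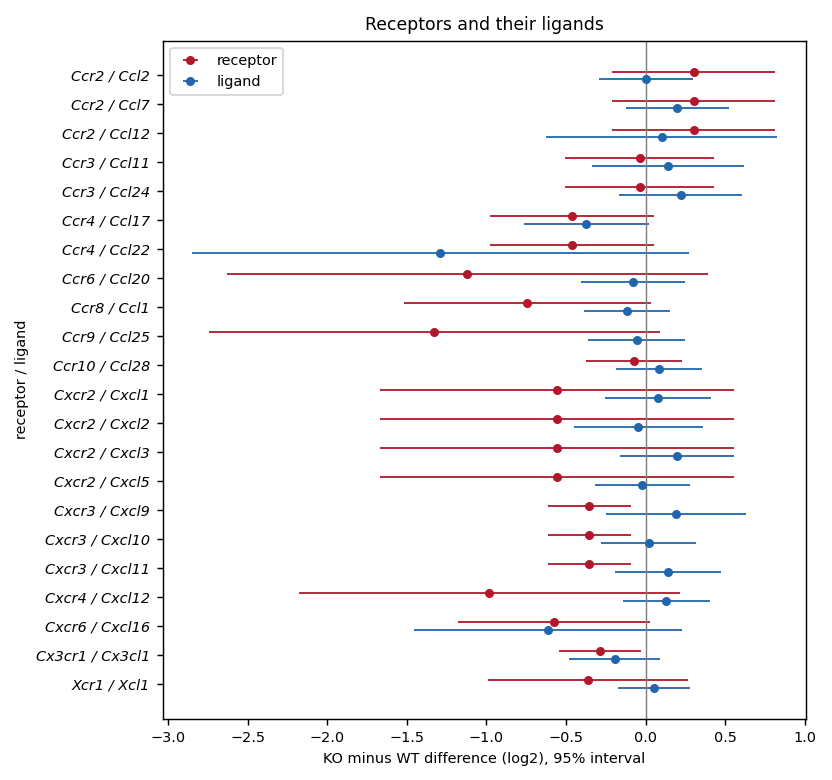
KO minus WT differences of 13 receptors (red) and their ligands (blue) in 22 pairs, with 95% intervals from limma; a receptor with several ligands is drawn once for each. With all 6 arrays, Ccr9, Ccr6 and Cxcr4 lie near or below -1 while their ligands lie near 0. Cxcr6 and Cxcl16 lie together near -0.6.

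Members that lie close together in the genome did not share 1 value. Neighbours were taken as members within 10 protein-coding genes of each other in the RefSeq order (GRCm38.p6). Ccl22, Cx3cl1 and Ccl17, which are neighbours, differed by -1.29, -0.19 and -0.37. In the group of Ccl5, Ccl9, Ccl6, Ccl3 and Ccl4, Ccl5 differed by -0.94 and the others by -0.025 to 0.34. In the group of Ccl2, Ccl7, Ccl11, Ccl12, Ccl8 and Ccl1, differences ran from -0.12 to 0.40. Along the receptor group, Ccr9, Cxcr6 and Xcr1 differed by -1.33, -0.58 and -0.36, and the adjoining myeloid receptors Ccr1, Ccr1l1, Ccr3 and Ccr2 by 0.20, 0.073, -0.038 and 0.30.

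The genes around the set were described from gene lists of the pathway. The 4 lymphoid genes left out of it had the same order of arrays as the lymphocyte receptors. Ccr7, which brings naive T cells and dendritic cells into lymph nodes, was at 10.50, 10.46 and 10.67 in the WT arrays and 9.61, 10.50 and 6.76 in the KO arrays. Cxcr5, the follicular B cell receptor, was at 7.75, 7.88 and 7.83 in the WT arrays and 7.21, 7.70 and 3.66 in the KO arrays. These 2 receptors differed by -1.59 and -1.63, and by -0.49 and -0.36 without KO replicate 3. The Cxcr5 ligand Cxcl13 and the Ccr7 ligand Ccl19 differed by -1.64 and -0.80, and by -0.23 and -0.019 without KO replicate 3. Of 5 measured atypical receptors and decoys, 1, Ackr3, was higher at an unadjusted p under 0.05 from limma (against 4.99% of all genes). All KO arrays lay above the WT arrays in 2 of the 5 (against 7.96%). Ackr2 and Ccrl2 differed by 0.24 and 0.10. For Ackr2 the difference was 0.019 without KO replicate 1. Of 7 further chemokine and chemokine-like genes 1, Ppbp, was higher at that threshold (against the same 4.99%). In 2 of the 7 all KO arrays lay above the WT arrays (against 7.96%), and in 2 all lay below (against 5.97%). Cklf and Cmtm7 differed by -0.49 and -0.40, and by -0.23 and -0.13 without KO replicate 3.

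Of 34 measured genes of chemokine receptor signalling 27 had negative differences, where 47% of all genes did, with a median of -0.16, and -0.078 without KO replicate 3. At an unadjusted p under 0.05, 1 was lower (against 2.48% of all genes) and 1 higher (against 4.99%). In 17 of them KO replicate 3 was the lowest and KO replicate 1 the second lowest array, an order seen in 11.8% of all genes. All KO arrays lay below the WT arrays in 4 of the 34, Pik3r5 and Rock1 among them (against 5.97% of all genes). They lay above in 1 (against 7.96%). Pik3r5, a regulatory subunit of the leukocyte PI3 kinase gamma, was at 8.51, 8.53 and 8.44 in the WT arrays and 8.06, 8.33 and 7.39 in the KO arrays, a difference of -0.57 (unadjusted p 0.0392 by limma), and -0.30 without KO replicate 3. Plcb3, a phospholipase C beta that many tissues express, was at 8.60, 8.64 and 8.34 in the WT arrays and 8.99, 8.71 and 8.90 in the KO arrays, with every KO array above WT and a difference of 0.34 (unadjusted p 0.0266 by limma), which ranged from 0.25 to 0.42 when single arrays were left out. Rock1, a kinase of cell contraction, differed by -0.28, and by -0.17 without KO replicate 3. Of 20 measured inducers of chemokine genes 16 were negative, against 47% of all genes, with a median of -0.12, and -0.065 without KO replicate 3. Myd88, the adaptor of Toll-like and interleukin 1 receptors, differed by -0.27 (unadjusted p 0.0230 by limma), with every KO array below WT. Of the 20 inducers it was the only 1 with that separation (against 5.97% of all genes). Relb and Lta, which take part in lymphoid organ formation, differed by -0.38 and -0.42, and by -0.22 and -0.21 without KO replicate 3. None of these genes passed at an adjusted p under 0.05.

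WT replicate 2 was the lowest array for 16 of the 48 members (33.3%, against 21.4% of all genes), among them Ccl3, Ccl8, Ccl11, Ccr1, Ccr2 and Cxcl10. This array was likewise chosen for counting after the values were seen. That array also had the highest level of epidermal and gland epithelial markers, 1.46 against -0.40 to -0.22 in the others, and of skeletal muscle markers, 2.42 against -1.67 to 1.51. The part of these tissues in the chemokine values was not tested.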

How the data were processed

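Deposited values were log2 intensities of 34760 probe sets on 6 arrays, for which RMA, affy and limma are named without versions, per the submitters' processing notes. The array annotation gave 21640 probe sets 1 gene symbol and 1321 several, and 11799 had none listed. A gene with several probe sets was represented by the one brightest on average. Of the members, Ccl25 alone had several probe sets.

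KO was tested against WT with limma 3.58.1 in R 4.3.3 (lmFit, eBayes, two-sided, no filter on dim genes), with Benjamini-Hochberg adjustment over 19937 genes and a threshold of 0.05. The fit was checked on simulated data with equal spread on all 6 arrays. That check does not cover an array that stands apart, as KO replicate 3 does. Replicates are mice per the series design, and their number, 3 per group, limits the precision. An exact permutation test of 3 against 3 cannot go below 0.1.

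The members and lists were chosen with earlier results of these data known. The naming rule took Atf7, members whose groups did not overlap, 8 members with the smallest p in each direction, the 6 ligands and 4 receptors with the highest means, 24 fixed members, of which 22 were measured, the 4 lymphoid genes and 3 genes per pathway list. Other genes were named after their values were seen. Alternatives were 2 normalizations, a filter on dim genes, the mean of probe sets, another variance model, array weights, the replicate number as a block and leaving out each array.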

Additional observations from a re-analysis of the deposited data

How the results depend on the processing

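No member passed at an adjusted p under 0.05 in either direction under any of the 13 alternatives run, with adjusted p-values from 0.174 to 1. The count of members lower at an unadjusted p under 0.05 from limma was 2 of 48, beside 494 of all 19937 genes. It was 6 with gene-by-gene array weights (1329 of all genes) and 4 with the replicate block (466 of all genes). When single arrays were left out it lay between 1 and 12 (192 to 1689 of all genes). The count of higher members was 0 (995 of all genes), and 0 to 3 when single arrays were left out. Ccl3 was higher without WT replicate 1 (800 of all genes). Without WT replicate 3, Ccl7, Ccl8 and Ccr2 were (597 of all genes), and without KO replicate 3, Ccl12 was (619 of all genes). The ligand median of 0.036 was 0.13 among the 15 ligands brighter than the median gene. Atf7 probe set 10433032 kept its direction, with -2.66 and an adjusted p of 0.0792 from limma with the replicate block, and between -2.72 and -2.56 when single arrays were left out, where the adjusted p was above the threshold without WT replicate 1 (0.0745) and WT replicate 3 (0.147). Deviations of same-numbered arrays correlated at -0.14, -0.08 and -0.04, which with 3 arrays per group cannot decide whether the numbers pair the samples. The block changed no adjusted call of a member, and there was none to lose without it. With array weights Ccl2 (-0.13), Ccl28 (-0.0083), Ccr1l1 (-0.083), Cxcl1 (-0.030) and Cxcl10 (-0.037) turned negative. Without each array in turn the sign changed for 21 members: Ccl11 (-0.026 to 0.31), Ccl12 (-0.12 to 0.49), Ccl2 (-0.076 to 0.13), Ccl20 (-0.22 to 0.035), Ccl25 (-0.19 to 0.037), Ccl26 (-0.16 to 0.067), Ccl28 (-0.0077 to 0.17), Ccl4 (-0.12 to 0.036), Ccl6 (-0.071 to 0.62), Ccr1 (-0.019 to 0.35), Ccr10 (-0.16 to 0.061), Ccr1l1 (-0.15 to 0.19), Ccr3 (-0.19 to 0.13), Cxcl1 (-0.021 to 0.18), Cxcl10 (-0.078 to 0.076), Cxcl14 (-0.15 to 0.68), Cxcl2 (-0.23 to 0.10), Cxcl5 (-0.14 to 0.050), Cxcl9 (-0.019 to 0.35), Cxcr1 (-0.15 to 0.040), Cxcr2 (-0.89 to 0.032). The cause of these changes was not tested.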
